A study of Mus musculus with 9 samples.

Results

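The mitochondrial DNA-encoded transcripts are the 37 genes, of 54532 in the deposited count table, whose symbol starts with mt-. They comprised 13 protein-coding genes, 2 rRNA genes and 22 tRNA genes, with 28 on the forward strand and 9 on the reverse strand of the chromosome. All 37 were found in the table, 33 had at least 1 count in every library and 1, the phenylalanine tRNA mt-Tf, had none in any. The mitochondrial chromosome is a small circle whose strands are each read as long precursor RNAs. The precursors are cut, largely at the tRNAs that lie between the other genes, into mRNAs, rRNAs and tRNAs. The mRNAs code for core subunits of respiratory complexes I, III, IV and V, which are completed by nuclear-encoded proteins, and the heart, which runs on mitochondrial respiration, holds a large amount of these RNAs.

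RNA-seq was performed on heart tissue of wild-type (WT) male C57BL/6J mice aged 8 to 10 weeks, with 3 libraries of separate animals in each of 3 groups. Sham mice had the chest opened and a suture passed under the left anterior descending coronary artery without a knot. MIRI (myocardial ischemia/reperfusion injury) mice had that artery tied for 30 min and released for 24 h. GXNI mice had the same injury and received Guanxinning injection, a herbal medicine, at 9 mL/kg, into the tail vein within 10 min of ischemia, when the other groups received saline. The labels call the cell type cardiomyocytes, but markers of fibroblasts, macrophages, neutrophils, endothelial cells and red cells were detected too, as in whole heart tissue. In such tissue fewer cells of a type and less RNA per cell cannot be told apart.

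The libraries held between 17119454 and 22811295 counts, so that 3 counts corresponded to 0.132 to 0.175 CPM (counts scaled to a library total of 1000000), and the precision of low tRNA counts is limited by that depth. Over 15207 genes each sham library was most like another sham library, but no MIRI or GXNI library was most like one of its own group. The library labelled MIRI 2 was most like GXNI 1 (Spearman correlation 0.982), while the library labelled GXNI 3 and MIRI 3 were most like each other (0.987). MIRI 1 was nearest to the library labelled GXNI 3 (0.986), GXNI 2 to MIRI 1 (0.980) and GXNI 1 to sham 1 (0.984). The summed level of 8 neutrophil markers was 26.8 CPM in the library labelled MIRI 2, against 716 and 644 in MIRI 1 and 3, and 680 in the library labelled GXNI 3, against 48.6 and 219 in GXNI 1 and 2. In sham it ranged from 29.0 to 55.8 CPM. Whether the labels of MIRI 2 and GXNI 3 were exchanged was not tested, and it bears on what each MIRI and GXNI mean stands for. The groups below follow the labels, and the results that rest on these libraries are also given without them. Both were singled out from these same counts, so fits without them describe the data and are not separate tests.

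Mitochondrial genes took between 23 and 29.8% of all counts in every heart. Their share was 27.4, 29.8 and 27.6% in sham 1 to 3, 25.4, 26.9 and 23% in MIRI 1 to 3 and 27.3, 25.8 and 23.7% in GXNI 1 to 3. Every MIRI and GXNI library was below every sham library, though GXNI 1 and sham 1 were nearly level, and MIRI and GXNI overlapped. Group means were 28.3 ± 1.30% in sham, 25.1 ± 1.958% in MIRI and 25.6 ± 1.83% in GXNI (SD, n = 3 each). Without the library labelled MIRI 2 the MIRI mean was 24.2%, and without the library labelled GXNI 3 the GXNI mean was 26.6%. The summed level of 10 cardiomyocyte markers, such as Myh6 and Tnnt2, was 45859.6 to 48867 CPM in sham, 31951 to 50729 in MIRI, highest in the library labelled MIRI 2, and 33187 to 41511 in GXNI, with none of the 10 at 0. The markers did not move alike, and Myh6 made up the largest part of the sum. Mean Myh6 was 15451 CPM in sham, 9371 in MIRI and 9298 in GXNI. Of the 10, only Actc1 had a higher mean in MIRI and GXNI than in sham, at 4630 CPM in sham, 8179 in MIRI and 5241 in GXNI. The part of this marker level in the lower mitochondrial share was not tested.

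By class, mRNA made up 94.4 to 97.0% of the mitochondrial counts, rRNA 2.62 to 5.25% and tRNA 0.387 to 0.523%. The methods of the study do not state how RNA was selected for the libraries, by type or by length. These shares therefore describe the counts and not the amount of each RNA class in the heart. By complex, the 7 complex I mRNAs took, of all counts, 11.4, 11.9 and 11.5% in sham 1 to 3, 10.01, 11.2 and 9.34% in MIRI 1 to 3 and 11.3, 10.5 and 9.26% in GXNI 1 to 3. Complex IV, with 3 mRNAs, took 11.2 ± 0.696% of all counts in sham, 9.82 ± 1.01% in MIRI and 9.76 ± 0.496% in GXNI (SD, n = 3 each). Complex III, whose single mitochondrial mRNA is mt-Cytb (cytochrome b), took 4.24 ± 0.259%, 3.84 ± 0.395% and 4.10 ± 0.330%, and complex V, the ATP synthase, no more than 0.395% in any library. Within the mitochondrial mRNA, complex I held 41.0 to 43.3%, complex III 15.3 to 17.1%, complex IV 38.4 to 42.8% and complex V 0.800 to 1.37%. The mt-Cytb part was 15.3, 15.7 and 15.4% in sham 1 to 3, and 17.1, 16.3 and 16.9% in GXNI 1 to 3, so that these groups did not overlap, with MIRI between 15.4 and 16.4%.

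**Figure D1:**
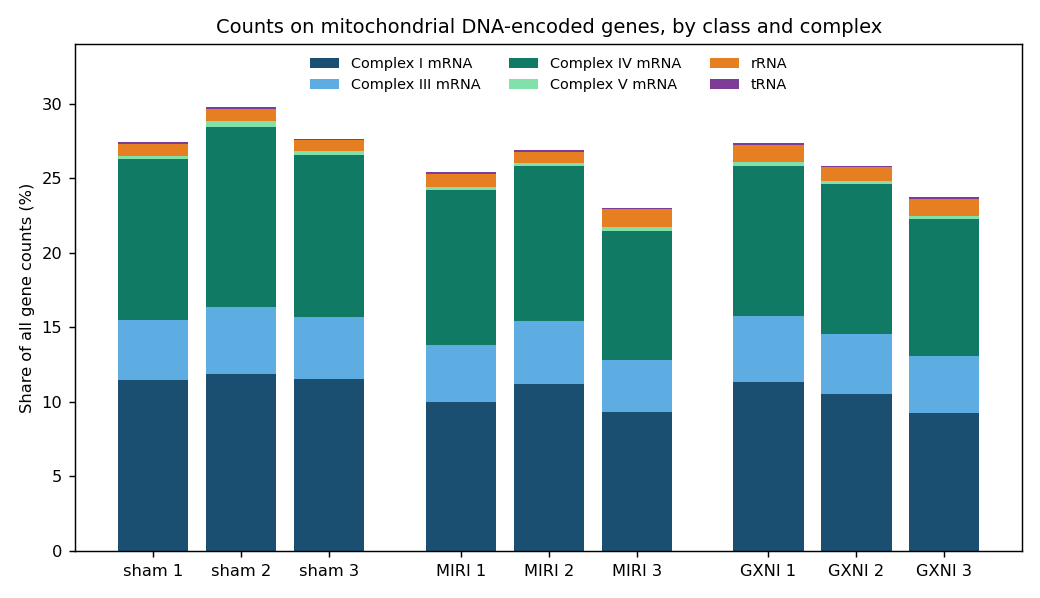
Stacked bars give the share of all gene counts (percent, y axis from 0) that fell on mitochondrial mRNAs of complexes I, III, IV and V, on rRNA and on tRNA in each of the 9 libraries. Bars reach 27.4 to 29.8% in sham, 23 to 26.9% in MIRI and 23.7 to 27.3% in GXNI, and complexes I and IV fill most of each.

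Levels differed far more between genes than between groups. In raw counts per base of gene, the catalytic cytochrome c oxidase subunit mt-Co1 had the highest count in every library, with a mean of 1243 counts per base, followed by mt-Cytb (695) and the complex I subunits mt-Nd1 (602) and mt-Nd2 (422). Next came mt-Nd4 (305), mt-Nd6 (302) and mt-Nd5 (264), also of complex I, of which mt-Nd4 and mt-Nd6 changed places between libraries. The remaining 6 mRNAs lay well below: mt-Atp6 (72.1), mt-Nd4l (68.4), mt-Co2 (67.2), mt-Co3 (60.5), mt-Nd3 (13.02) and mt-Atp8 (1.69). The order among mt-Atp6, mt-Nd4l, mt-Co2 and mt-Co3 differed from library to library, whereas mt-Nd3 was the 12th and mt-Atp8 the 13th in all 9. The rRNAs stood at 84.3 (mt-Rnr2, large subunit) and 50.7 counts per base (mt-Rnr1, small subunit). As the RNA selection is not stated, these counts do not rank rRNA against mRNA in the heart. The 6 genes with most counts, mt-Co1, mt-Cytb, mt-Nd1, mt-Nd5, mt-Nd2 and mt-Nd4, took 87.7 to 90.9% of all mitochondrial counts.

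The 6 low mRNAs lie next to each other on the chromosome, and the sequence of 5 of them occurs a second time in the nuclear genome. From mt-Co1 to mt-Nd4, 4653 bases of the mitochondrial chromosome (chrM:6390-11042) correspond in order and length to a run of 7 annotated pseudogenes on chromosome 1 (chr1:24611535-24616188, GRCm38, reverse strand, 4654 bases). The bases between the pseudogenes were not compared. The stretch contains 11 mitochondrial genes whole, mt-Co2, mt-Atp8, mt-Atp6, mt-Co3, mt-Nd3, mt-Nd4l and 5 tRNA genes, and parts of mt-Co1 and mt-Nd4. Of the windows of 100 bases in each gene, 99.5% of mt-Co2 and of mt-Atp6, 99.9% of mt-Co3, 97.6% of mt-Nd3 and 98.5% of mt-Nd4l were found base for base in another annotated transcript. The value was 60.8% for mt-Nd4, 30.8% for mt-Co1, 3.19% for mt-Nd2 and 0 for mt-Nd1, mt-Nd5, mt-Nd6, mt-Cytb and both rRNAs. It was also 0 for mt-Atp8, which lies inside the stretch but has no annotated pseudogene of its own. The copies of mt-Co2 (Gm28661), mt-Atp6 (Gm10925), mt-Co3 (Gm28437), mt-Nd4l (Gm10222) and mt-Nd4 (Gm28439) had no mismatch over 681, 678, 783, 294 and 876 aligned bases. The copy of mt-Co1 (Gm29216) had 1 over 483 (A1066T) and that of mt-Nd3 (Gm28438) had 1 over 345 (T3C), with positions counted from the first base of the mitochondrial gene and the mitochondrial base given first. The start of mt-Nd3 and of its copy shows how little there is to tell them apart. The sequences come from GENCODE M21, mt-Nd3 at chrM:9459-9538 on the forward strand and the copy at chr1:24613040-24613119 on the reverse strand, with the single differing base in capitals.
mt-Nd3: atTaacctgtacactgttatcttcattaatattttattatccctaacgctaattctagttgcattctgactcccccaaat
Gm28438: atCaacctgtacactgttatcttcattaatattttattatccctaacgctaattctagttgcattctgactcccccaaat

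Reads from the copied stretch can be placed on either chromosome, and how such reads were counted is not given in the sources used here, so the levels of these genes are uncertain. The pseudogenes themselves had counts in all 9 libraries. As a percentage of the counts of their mitochondrial partner these came to 31.4 for Gm28661, 32.3 for Gm10925, 20.9 for Gm28437, 26.6 for Gm28438 and 16.9 for Gm10222, and to 2.03 for Gm28439 and 0.432 for Gm29216, whose partners lie only partly in the stretch. The 6 mRNAs wholly inside ranged from 0.882 to 144 counts per base over the libraries, and the other 7 from 167 to 1585, so the sets did not overlap in level. The inside genes held 3.38% of all mitochondrial mRNA counts. Their spread within groups was also wider, with a median pooled SD of 0.48 on the log2 scale against 0.14 for the other 7, although mt-Nd3 (0.15) was as steady as the genes outside and mt-Nd6 (0.29) and mt-Nd5 (0.27) varied more. Whether the copies account for the low and variable counts was not tested.

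The pair of complex V genes also shares bases on its own chromosome. The last part of mt-Atp8 is the first part of mt-Atp6, 43 bases at chrM:7927-7969 on the forward strand that are read in different frames. To which gene reads there were counted, if any, is not given in the sources used here. The overlap is shown because mt-Atp8 was the mRNA with fewest counts, and whether it bears on that count was not tested.
mt-Atp8 and mt-Atp6: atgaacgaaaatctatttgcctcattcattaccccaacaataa
Smaller overlaps join mt-Nd4l to mt-Nd4 by 7 bases on the same strand, and mt-Nd5 to mt-Nd6 by 14 bases on opposite strands. The strand setting of the counting is not given in the sources used here either, so counts on mt-Nd6 and on the 8 reverse-strand tRNAs cannot be told apart from antisense RNA of the forward-strand precursor.

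**Figure D2:**
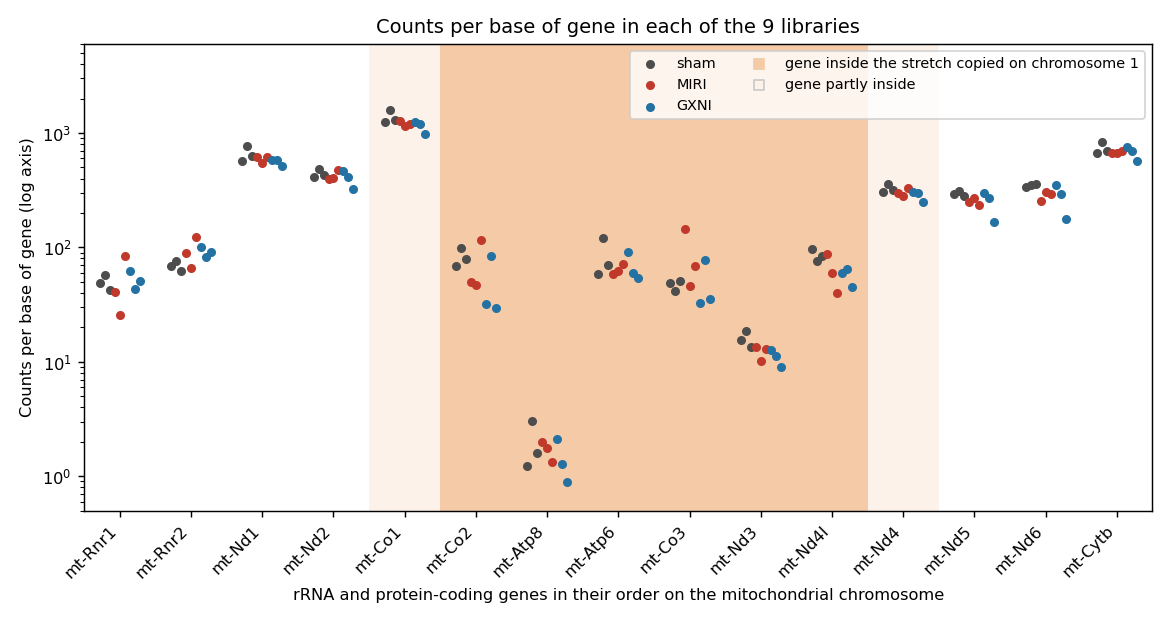
Points give counts per base of gene (log axis) of the 2 rRNA and 13 protein-coding genes in each of the 9 libraries, coloured by group and set in chromosome order. The genes inside the stretch copied on chromosome 1 (darker shading) lie at 0.882 to 144 counts per base, and the other protein-coding genes at 167 to 1585.

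The tRNA genes, of 59 to 75 bases, were covered very unevenly, and how far the libraries kept such short RNAs is not stated. Of the 22, 6 had a mean under 10 counts and never more than 9 in a library: mt-Tf, mt-Tv, mt-Ts1, mt-Td, mt-Tk and mt-Tt. Another 8 had 33 to 259 counts, and 8 had 436 to 7695. Of these last 8, 5 are on the reverse strand (mt-Tp, mt-Tc, mt-Tn, mt-Te and mt-Ty), as are 8 of all 22, and reverse-strand genes took 78.6 to 84.9% of tRNA counts. The tRNAs for proline (mt-Tp), cysteine (mt-Tc) and asparagine (mt-Tn) alone made up 60.9 to 72.1%. These 3, the glutamate tRNA mt-Te next to mt-Nd6, and the tRNA for leucine mt-Tl1 are printed because they carried most of the counts or of the differences described next. Sequences are those of GENCODE M21, 5′ to 3′ on the strand of the gene, with the anticodon in capitals, and mt-Tl1 lies at chrM:2676-2750 on the forward strand.
mt-Tl1: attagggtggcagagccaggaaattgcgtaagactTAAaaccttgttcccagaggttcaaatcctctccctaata
mt-Tp: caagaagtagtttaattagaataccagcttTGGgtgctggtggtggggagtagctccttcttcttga
mt-Tc: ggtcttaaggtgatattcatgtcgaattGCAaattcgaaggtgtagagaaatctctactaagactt
mt-Tn: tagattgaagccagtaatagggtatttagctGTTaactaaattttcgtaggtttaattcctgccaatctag
mt-Te: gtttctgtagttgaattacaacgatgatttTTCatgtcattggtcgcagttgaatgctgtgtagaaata
Per base the reverse-strand tRNAs mt-Tp (92.3 counts), mt-Tc (83.3), mt-Tn (50.4) and mt-Te (32.3) ranked above the forward-strand mt-Tl1 (18.3) and mt-Tw (16.9), the tryptophan tRNA.

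The comparison of MIRI with sham asked how the injury changed the heart transcriptome. Of the mitochondrial genes 31 had enough counts to be tested, all 13 mRNAs, both rRNAs and 16 tRNAs. Calls used the thresholds of the study, an edgeR p no higher than 0.01 before adjustment and a change of 1.5-fold or more. Of the mitochondrial genes 1 was called, mt-Tl1, which rose, while 8.97% of all 14644 genes tested were called, 6.15% higher. No mitochondrial gene reached an adjusted p of 0.05 in edgeR, a level that 0.0137% of all genes reached, and 2 had an unadjusted p under 0.05, beside 28.3% of all genes. The differences leaned to lower levels in MIRI, with 26 of 31 log2 fold changes below 0 and a median of -0.23, beside 50.1% below 0 and a median of -0.0015 over all genes. These transcripts are cut from shared precursors and are not independent of each other. In 3 of the 31 genes all MIRI libraries were above all sham libraries (17.4% of all genes) and in 3 they were below (16.2%).

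mt-Tl1 (ENSMUSG00000064340) codes for the tRNA that reads UUA and UUG leucine codons, sits between mt-Rnr2 and mt-Nd1, and contains the site where the terminator protein MTERF1 binds. Its level was 48.2, 57.7 and 51.2 CPM in sham 1 to 3, 82.4, 93.0 and 71.6 in MIRI 1 to 3 and 69.6, 77.6 and 80.9 in GXNI 1 to 3. All MIRI and GXNI libraries were above all sham libraries, and the library labelled MIRI 2 was the highest of the 9. MIRI averaged 82.3 ± 10.7 CPM against 52.3 ± 4.86 in sham (SD, n = 3 each). The log2 fold change was 0.66 ± 0.144 (± SE, as for every log2 fold change here), with edgeR p of 0.00256, adjusted p = 0.0767, and DESeq2 gave an adjusted p of 0.00725. The share of all genes with a DESeq2 adjusted p under 0.05 is not given here. Without the library labelled MIRI 2 it was 0.56 ± 0.123 (edgeR p of 0.00234, adjusted p = 0.00950), which is under the fold threshold, and the call was also lost without sham 1 (0.59) or sham 3 (0.63), each with an edgeR p of 0.0164.

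The neighbouring large rRNA, mt-Rnr2, was 5862, 5984 and 5214 CPM in sham 1 to 3, 6575, 6149.5 and 8370.4 in MIRI 1 to 3 and 7893, 6481 and 8349.9 in GXNI 1 to 3. Here too every MIRI and GXNI library lay above every sham library. The log2 fold change in MIRI was 0.31 ± 0.211 and did not pass (edgeR p of 0.184, adjusted p = 0.353). The small rRNA mt-Rnr1 read 2497, 2689 and 2175 CPM in sham 1 to 3, 1830.5, 1456 and 3439.9 in MIRI 1 to 3 and 2982, 2054 and 2845 in GXNI 1 to 3, and its groups overlapped, with MIRI 3 the highest and the library labelled MIRI 2 the lowest (-0.12 ± 0.332, edgeR adjusted p = 0.823). Counts of mt-Rnr2 per count of mt-Rnr1 were 2.23 to 2.40 in sham, 2.43 to 4.22 in MIRI and 2.65 to 3.16 in GXNI. Relative to mRNA, rRNA stood at 2.70 to 3.13 counts per 100 mRNA counts in sham, at 3.61, 2.75 and 5.56 in MIRI 1 to 3, and at 4.27, 3.56 and 5.01 in GXNI 1 to 3.

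All 7 complex I mRNAs had log2 fold changes below 0 in MIRI, from -0.52 (mt-Nd4l) to -0.13 (mt-Nd2), and none was called. The smaller subunit gene mt-Nd3 was 289, 322 and 249 CPM in sham 1 to 3, 221, 211 and 192 in MIRI 1 to 3 and 219, 193 and 183 in GXNI 1 to 3, with all MIRI and all GXNI libraries below all sham libraries. Its log2 fold change of -0.46 ± 0.145 had an edgeR p of 0.0161 and an adjusted p of 0.116. Both mt-Nd3 and mt-Nd4l lie inside the copied stretch, so their levels are uncertain. mt-Nd4l was 1544, 1118 and 1342 CPM in sham 1 to 3, 1223, 1044 and 510.4 in MIRI 1 to 3 and 893, 953 and 785 in GXNI 1 to 3, and MIRI 3 was the lowest of the 9. mt-Nd5, the largest of these subunits, lies at the far end of the proton-pumping arm of the complex. For mt-Nd5 the values were 28871, 28087 and 27423 CPM in sham 1 to 3, 21412, 29213 and 18236 in MIRI 1 to 3 and 27193, 24296 and 17649.9 in GXNI 1 to 3. For mt-Nd6, the only mRNA on the reverse strand, they were 9435, 9049 and 9878 CPM in sham 1 to 3, 6209, 9411 and 6489.9 in MIRI 1 to 3 and 9084, 7437 and 5368 in GXNI 1 to 3. In both genes MIRI 1, MIRI 3 and the library labelled GXNI 3 were lowest, and the library labelled MIRI 2 was at the sham level. The log2 fold changes were -0.29 ± 0.276 and -0.36 ± 0.236. mt-Nd1 (-0.23 ± 0.256), mt-Nd2 (-0.13 ± 0.240) and mt-Nd4 (-0.18 ± 0.234) overlapped with sham.

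In complex IV, mt-Co1 was 104209, 121245 and 106323 CPM in sham 1 to 3, 92579.9, 105987 and 79044 in MIRI 1 to 3 and 95395, 91382 and 88568 in GXNI 1 to 3. The library labelled MIRI 2 lay within the sham range and MIRI 1 and 3 below it, and the log2 fold change was -0.25 ± 0.326. mt-Co3, in the copied stretch, went the other way and was the only mRNA with a value above 0 (0.76 ± 0.374, edgeR p of 0.0832, adjusted p = 0.228). Its levels of 2064, 1621 and 2106 CPM in sham 1 to 3, 5280.2, 2152 and 2303 in MIRI 1 to 3 and 1276, 2982 and 1607 in GXNI 1 to 3 show that the difference rested on MIRI 1, without which it was 0.21 ± 0.206. Its nuclear copy Gm28437 had a log2 fold change of -0.19 ± 0.254 in the same comparison. mt-Co2 was 2518, 3344 and 2872 CPM in sham 1 to 3, 1604, 1910.3 and 3395 in MIRI 1 to 3 and 1082, 2842 and 1182 in GXNI 1 to 3, so that MIRI 1 and 2 were below every sham library and MIRI 3 above (-0.33 ± 0.309). Without MIRI 3 mt-Co2 was called lower (-0.73, edgeR p of 0.00944), and the share of all genes called in that fit is not given here. For complex III, mt-Cytb was 40868, 47561 and 42285 CPM in sham 1 to 3, 35890.2, 45266 and 34043 in MIRI 1 to 3 and 43533, 38976 and 37843 in GXNI 1 to 3, with overlap (-0.18 ± 0.276). In complex V the log2 fold changes were -0.43 ± 0.280 for mt-Atp6 and -0.23 ± 0.351 for mt-Atp8, and sham 2 was the highest library in both, at 4111 and 30.6 CPM.

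Of the 16 tRNAs tested 13 had a log2 fold change below 0 in MIRI. The lowest were a trio of neighbours upstream of mt-Nd2, mt-Tm for methionine (-0.79 ± 0.401), mt-Ti for isoleucine (-0.64 ± 0.281) and mt-Tq for glutamine (-0.49 ± 0.460), and mt-Te (-0.53 ± 0.283), and none passed. mt-Te was 119, 155 and 141 CPM in sham 1 to 3, 96.0, 131 and 58.3 in MIRI 1 to 3 and 133, 125 and 72.05 in GXNI 1 to 3. The lowest libraries, MIRI 3, the library labelled GXNI 3 and MIRI 1, were the same 3 as in its neighbours mt-Nd6 and mt-Nd5. Apart from mt-Tl1, the other tested tRNAs ranged from -0.46 (mt-Tl2 for leucine and mt-Th for histidine) to 0.39 (mt-Ta, alanine). The abundant mt-Tp (-0.19 ± 0.137), mt-Tc (-0.12 ± 0.273) and mt-Tn (-0.11 ± 0.310) overlapped between the groups. Of the other leucine tRNA, mt-Tl2, all MIRI libraries (20.7 to 38.6 CPM) and all GXNI libraries (25.3 to 36.6) lay below all sham libraries (38.6 to 52.3), although MIRI 1 and sham 3 were level (-0.46 ± 0.258).

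Leaving out the library labelled MIRI 2 lowered the median SE of the 31 genes from 0.276 to 0.247. That library was singled out from these same counts, so the p-values of this fit are descriptive only. The median SE of the 13 mRNAs was 0.276 with it and 0.122 without. Then 9 of the 31 genes had an edgeR adjusted p of at most 0.05, beside 43.1% of all 15207 genes tested. Of these, mt-Nd6 (-0.57 ± 0.101, adjusted p = 0.00384), mt-Nd5 (-0.50 ± 0.110, 0.00927), mt-Te (-0.84 ± 0.219, 0.0191), mt-Nd3 (-0.47 ± 0.140, 0.0301), mt-Ti (-0.84 ± 0.263, 0.0366) and mt-Co1 (-0.36 ± 0.122, 0.0464) were lower in MIRI. mt-Tl1, mt-Co3 (0.98 ± 0.306, 0.0366) and mt-Rnr2 (0.40 ± 0.134, 0.0468) were higher. With the fold threshold 1 gene was called, mt-Te, beside 30.2% of all genes. The log2 fold changes of the mRNAs ran from -0.62 to 0.98, with a median of -0.36, beside a median of -0.0070 over all genes.

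**Figure D3:**
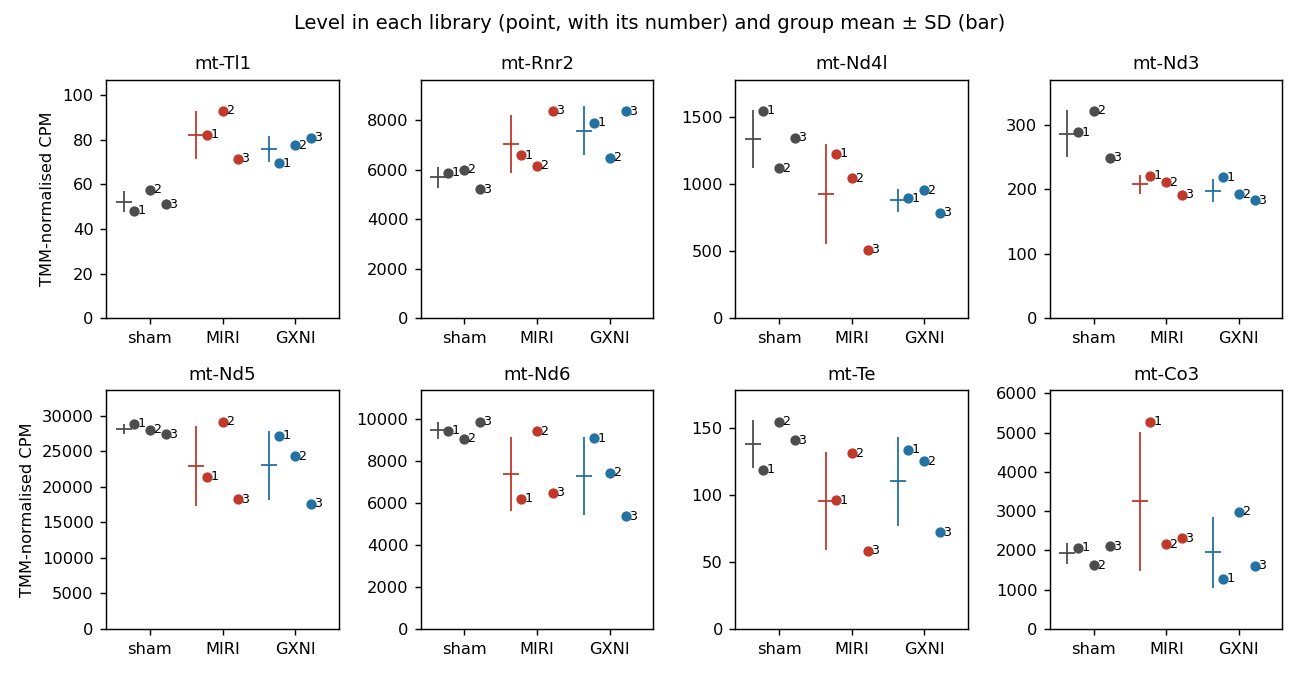
Points give the TMM-normalised CPM (linear axes from 0) of 8 mitochondrial genes in each library, labelled with the library number, and bars the group mean ± SD of 3 libraries. For mt-Tl1 and mt-Rnr2 all MIRI and GXNI points lie above the sham points, for mt-Nd3 below them, and for mt-Nd5, mt-Nd6 and mt-Te MIRI 1, MIRI 3 and GXNI 3 are the low points.

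GXNI was compared with MIRI to see what the drug changed after the injury. No mitochondrial gene was called among the 31 tested by edgeR or by DESeq2 (0.0391% of all genes in DESeq2), and 0 had an unadjusted edgeR p under 0.05, beside 0.0203% of all 14762 genes called and 0.318% with such a p. In none of the 31 were the groups free of overlap, compared with 1.21% of all genes higher and 1.49% lower. The log2 fold changes ran from -0.73 (mt-Co3) to 0.45 (mt-Ti) with a median of 0.01. Of the mRNAs outside the copied stretch, the log2 fold change was 0.01 ± 0.269 for mt-Nd1, 0.01 ± 0.331 for mt-Nd5, -0.01 ± 0.312 for mt-Nd6 and 0.07 ± 0.296 for mt-Cytb. mt-Co1 gave -0.00 ± 0.331, and mt-Tl1, which stood above sham in both groups, -0.11 ± 0.167. mt-Rnr1 and mt-Rnr2 gave 0.24 ± 0.363 and 0.12 ± 0.248.

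With the libraries labelled MIRI 2 and GXNI 3 both left out, 2 libraries remained in each group. Again 0 of the 31 genes were called, beside 4.99% of all 14984 genes, and 1, mt-Te, had an unadjusted edgeR p under 0.05 (0.75 ± 0.270, edgeR p of 0.0322, adjusted p = 0.234), beside 19.1% of all genes. The values moved towards higher levels in GXNI, with 25 of 31 above 0 and a median of 0.17. From the fit of all 6 libraries, the mitochondrial mRNAs shifted by a median of 0.172 and all genes by 0.0014. These transcripts are not independent of each other. The libraries left out were picked from these same counts as resembling the other group, so the shift is not a test of the drug. mt-Nd5 was then 0.39 ± 0.227 and mt-Nd6 0.39 ± 0.217, and the trio mt-Ti (0.77 ± 0.385), mt-Tm (0.92 ± 0.430) and mt-Tq (1.14 ± 0.498) had the largest values, none of which passed. mt-Tl1 (-0.05 ± 0.176) and mt-Rnr2 (-0.04 ± 0.236) stayed close to 0.

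The comparison of GXNI with sham, which uses the same sham libraries as that of MIRI with sham, asked which levels differed from sham in treated hearts. Of 31 genes 1 was called, the complex I gene mt-Nd4l, which fell, beside 4.21% of all 14695 genes, 1.54% lower. By adjusted p at 0.05, 0 of all genes passed in edgeR, and 6 mitochondrial genes had an unadjusted edgeR p under 0.05, beside 19.8% of all genes. The median log2 fold change was -0.19 with 24 of 31 below 0, against 0.01 and 49.1% for all genes. All GXNI libraries were below all sham libraries in 9 genes (15.6% of all genes) and above in 3 (13.8%). The 9 were mt-Nd1, mt-Nd3, mt-Nd4, mt-Nd4l, mt-Nd5, mt-Co1 and the tRNAs mt-Tg for glycine, mt-Ts2 for serine and mt-Tl2, and the 3 were mt-Rnr2, mt-Tl1 and mt-Ta, the alanine tRNA.

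For mt-Nd4l GXNI averaged 877 ± 85.4 CPM against 1335 ± 213 in sham (SD, n = 3 each), a log2 fold change of -0.60 ± 0.162 (edgeR p of 0.00808, adjusted p = 0.219). DESeq2 gave an adjusted p of 0.0489, and the share of all genes under 0.05 in DESeq2 is not given here. Nearly all of this gene is present in its nuclear copy Gm10222, which was 374, 193 and 223 CPM in sham 1 to 3, 124, 221 and 102 in MIRI 1 to 3 and 119.9, 139 and 108 in GXNI 1 to 3 and was itself called lower in GXNI (-1.10 ± 0.265, edgeR p of 0.00458, adjusted p = 0.219). Gm10222 lost that call without the library labelled GXNI 3 (-1.02 ± 0.294, edgeR p of 0.0121, adjusted p = 0.224). In that fit Gm28438, the copy of mt-Nd3, was called lower (-0.79 ± 0.178, edgeR p of 0.00375, adjusted p = 0.173), beside 3.57% of all genes called. These copies were taken up after their values had been seen. For all of them except Gm29216 every GXNI library was below every sham library, beside 15.6% of all genes. The log2 fold changes of the 7 ranged from -1.10 to -0.48. In MIRI against sham none of the 7 was called with all 6 libraries. Without the library labelled MIRI 2, Gm10222 (-1.22 ± 0.284) and Gm10925 (-0.65 ± 0.175) were called lower in MIRI, beside 30.2% of all genes called. The copies lie in a row and can share reads with their mitochondrial partners, so they are not independent of each other or of mt-Nd4l. The mt-Nd4l call was lost without the library labelled GXNI 3 (-0.53 ± 0.155, edgeR p of 0.0129, adjusted p = 0.224), and without any other single library except sham 2. mt-Nd3 (-0.52 ± 0.145, edgeR p of 0.00885, adjusted p = 0.219) and mt-Tl1 (0.55 ± 0.131, edgeR p of 0.00430, adjusted p = 0.219) met the p threshold but not the fold threshold. mt-Rnr2 gave 0.42 ± 0.153 (edgeR p of 0.0289, adjusted p = 0.228), mt-Tl2 -0.50 ± 0.186 (edgeR p of 0.0318, adjusted p = 0.230) and mt-Tg -0.94 ± 0.380 (edgeR p of 0.0441, adjusted p = 0.246).

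The other mRNAs ranged from -0.77 ± 0.381 (mt-Co2) to 0.03 ± 0.319 (mt-Co3), both inside the copied stretch. mt-Co2 was 1082 and 1182 CPM in GXNI 1 and the library labelled GXNI 3 and 2842 in GXNI 2, which lay within the sham range of 2518 to 3344. Without GXNI 2 mt-Co2 was called lower (-1.35, edgeR p of 0.000611). Without GXNI 1 the genes called were mt-Tl1 (0.61), mt-Tg (-1.31) and mt-Nd3 (-0.60). The share of all genes called without GXNI 2 or without GXNI 1 is not given here, so these calls lack that comparison. Outside the stretch mt-Nd6 (-0.37 ± 0.205), mt-Nd5 (-0.28 ± 0.187), mt-Nd1 (-0.22 ± 0.147), mt-Nd2 (-0.15 ± 0.145) and mt-Cytb (-0.11 ± 0.147) were all below 0 and did not pass. Without the library labelled GXNI 3, mt-Nd6 was -0.19 ± 0.120, mt-Nd5 -0.12 ± 0.0997 and mt-Te -0.09 ± 0.138, no mitochondrial gene was called, beside 3.57% of all 15007 genes, and 5 had an unadjusted edgeR p under 0.05, beside 15.8%. mt-Tl1 was then 0.50 ± 0.122 (edgeR p of 0.00583, adjusted p = 0.189) and mt-Rnr2 0.34 ± 0.126 (edgeR p of 0.0331, adjusted p = 0.281).

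**Figure D4:**
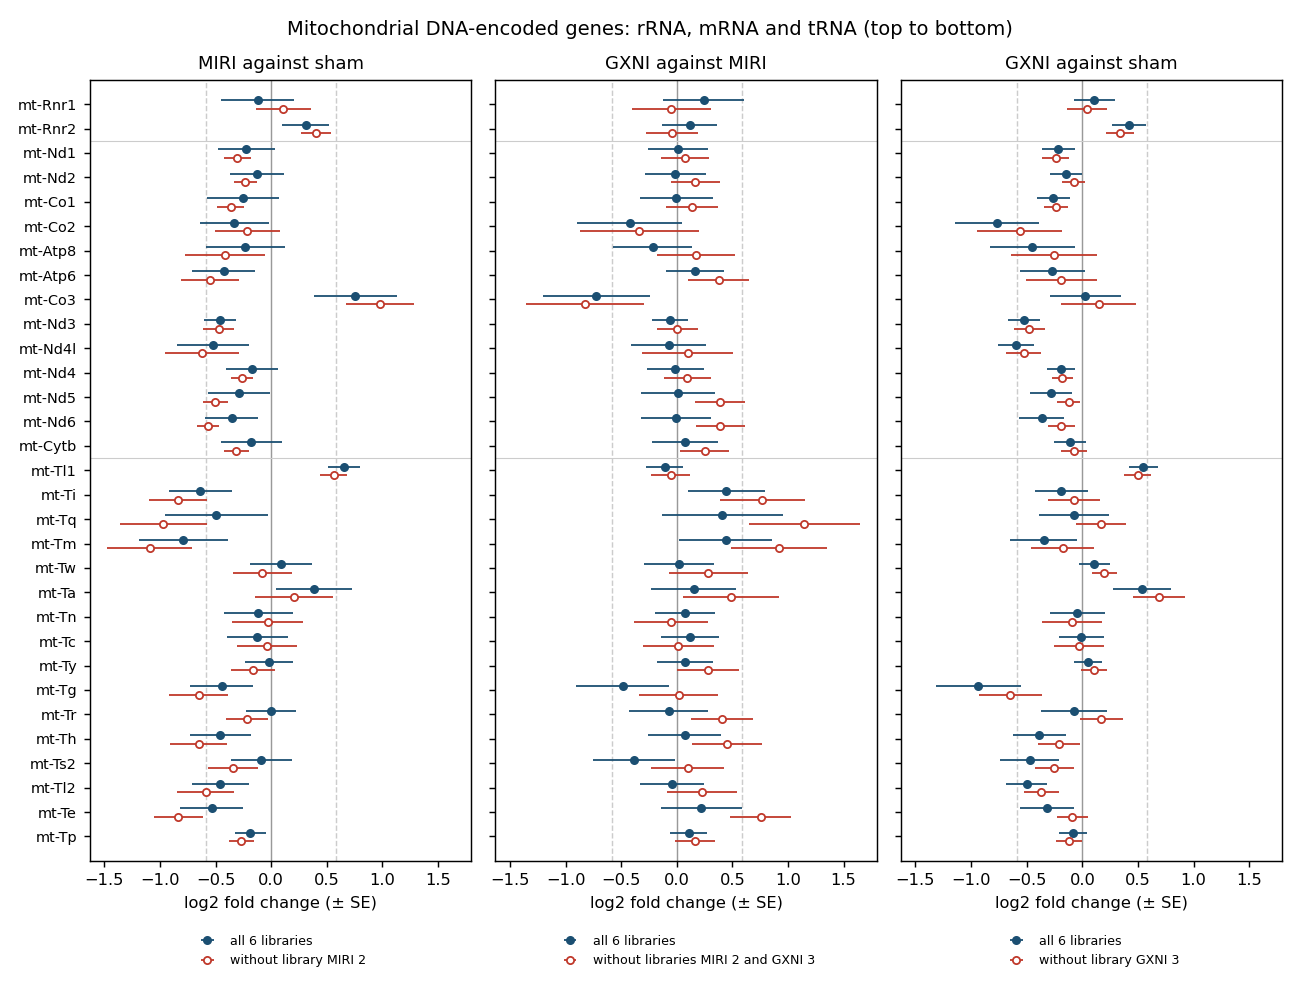
Log2 fold changes ± SE (x axis) of the 31 tested mitochondrial genes, with rRNA at the top, then mRNA and tRNA in chromosome order, in the 3 comparisons. Filled points use all 6 libraries, open points leave out the library labelled MIRI 2, the library labelled GXNI 3 or both, and dashed lines mark a 1.5-fold change. Most points lie left of 0 against sham, and mt-Tl1 lies to the right in both comparisons with sham. In GXNI against MIRI the filled points have a median of 0.01 and the open points of 0.17.

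The proteins that maintain, transcribe and process mitochondrial DNA and its RNA are encoded in the nucleus. Of 8 genes of DNA maintenance, 9 of transcription and 16 of RNA processing and stability, none was called in any of the 3 comparisons, beside 8.97% of all genes in MIRI against sham, 4.21% in GXNI against sham and 0.0203% in GXNI against MIRI. Their median log2 fold changes in MIRI against sham were -0.18, -0.30 and 0.08. Tfam, which packages the DNA and starts its transcription, was 32.4, 37.3 and 33.5 CPM in sham 1 to 3, 34.4, 43.0 and 35.3 in MIRI 1 to 3 and 27.6, 32.6 and 33.3 in GXNI 1 to 3, and its log2 fold change was 0.13 ± 0.138 in MIRI and -0.13 ± 0.136 in GXNI against sham. For the mitochondrial RNA polymerase Polrmt these were -0.26 ± 0.185 and -0.13 ± 0.176. Lrpprc and Slirp form a complex that protects mitochondrial mRNA. Lrpprc was 184, 179 and 178 CPM in sham 1 to 3, 112, 185 and 102 in MIRI 1 to 3 and 144, 134 and 95.5 in GXNI 1 to 3, with the library labelled MIRI 2 at the sham level and all others from injured hearts below it (-0.44 ± 0.229 in MIRI, -0.53 ± 0.169 in GXNI). Slirp gave -0.25 ± 0.245 and -0.24 ± 0.316.

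Among 7 regulators of mitochondrial biogenesis 1 was called, Pprc1, a relative of PGC-1 alpha, which rose in MIRI (1.32 ± 0.366, edgeR p of 0.00875, adjusted p = 0.0992), beside 8.97% of all genes called, 6.15% higher. It was 11.7, 15.3 and 18.0 CPM in sham 1 to 3, 44.8, 18.7 and 47.9 in MIRI 1 to 3 and 17.7, 30.4 and 58.3 in GXNI 1 to 3. The gene of PGC-1 alpha itself, Ppargc1a, was 158, 103 and 159 CPM in sham 1 to 3, 54.8, 128 and 32.6 in MIRI 1 to 3 and 155, 84.0 and 22.8 in GXNI 1 to 3, and did not pass (-0.96 ± 0.475). Its values within MIRI and GXNI were far apart, with MIRI 3 and the library labelled GXNI 3 lowest. Without the library labelled MIRI 2 Ppargc1a was called lower in MIRI (-1.68 ± 0.277, edgeR p of 0.000429, adjusted p = 0.00296), as was Lrpprc (-0.75 ± 0.104, edgeR p of 0.000140, adjusted p = 0.00147). In the same fit 12 of the 40 nuclear genes were called, 3 higher and 9 lower, beside 30.2% of all genes. With MIRI 2 and GXNI 3 both left out, Ppargc1a (1.46 ± 0.381, edgeR p of 0.00892) and the mitochondrial terminator family member Mterf2 (0.98 ± 0.257, edgeR p of 0.00911) were called higher in GXNI than in MIRI, beside 4.99% of all genes. Both libraries were singled out from these same counts as resembling the other group. Calls made without them are therefore descriptive only and not a test of the drug or the injury.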

How the data were processed

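Total RNA was extracted from hearts of 9 mice, 3 in each of the sham, MIRI and GXNI groups, and sequenced. Per the labels and the methods of the study, the authors removed reads with adapters, poly-N and low quality, aligned the rest to mm10 with HISAT2, counted them per gene with featureCounts and compared groups with DESeq2. Versions, the strand setting and the treatment of reads that match several places are not given in the sources used here. The deposited table holds raw counts per gene, which the authors left without normalization, beside their fold changes and p-values, which were not used.

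Gene names, positions and sequences came from GENCODE M21 (GRCm38), in which 54495 of 54532 identifiers were found. Counts were fitted in edgeR 4.0.16 (R 4.3.3) by its quasi-likelihood test, with filterByExpr and TMM scaling, on the 6 libraries of each comparison and all genes, with Benjamini-Hochberg adjustment over all genes tested. CPM were scaled by TMM over the 9 libraries. DESeq2 1.42.0 and the settings given in the closing section were alternatives. In simulated counts with 200 genes changed by 2 on the log2 scale, edgeR called 194 to 196 of them over the 3 comparisons. Of the unchanged genes it called 0.777 to 0.925%. The simulated spread between libraries was capped, so these values do not show how the fits perform on libraries as uneven as these. Gene copies were matched in Python 3.11.15 with Biopython 1.88. Each library came from a separate animal. No 2 libraries of a group agreed within sampling noise. With 17119454 to 22811295 counts, 3 counts equalled 0.132 to 0.175 CPM, and such floors cover counting error only. With 3 libraries a group an exact two-sided permutation test cannot go below p = 0.1, and none was run.

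The mitochondrial genes and all lists of nuclear genes and markers were chosen with earlier results of these data known. Named were all mitochondrial mRNAs and rRNAs, the tRNAs with a mean of at least 10 counts and any that was called. Shares of counts, levels per base and lists were described without a test.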

Additional observations from a re-analysis of the deposited data

How the results depend on the processing

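In MIRI against sham 1 mitochondrial gene was called, 0 to 2 when 1 library was left out, and 0 by edgeR's adjusted p at 0.05 with all 6 libraries. By that adjusted p 9 passed without the library labelled MIRI 2, and DESeq2 gave mt-Tl1 an adjusted p of 0.00725. mt-Tl1 lost the call without sham 1, sham 3 or MIRI 2, and the count was 2 without MIRI 3 (mt-Tl1 and mt-Co2). In GXNI against sham 1 was called, 0 with all 9 libraries in 1 fit, 0 by edgeR's adjusted p with all 6 libraries (3 without GXNI 1, and in DESeq2 0.0325 for mt-Tl1 and 0.0489 for mt-Nd4l), and 0 to 3 when 1 library was left out, with 0 without sham 1, sham 3 or the library labelled GXNI 3, 2 without sham 2 and 3 without GXNI 1. With library totals in place of TMM mt-Nd4l (-0.54) lost and mt-Tl1 (0.61) gained the call. GXNI against MIRI gave 0 calls in every setting run. No called gene changed direction. Among fits with libraries left out, the share of all genes called is given above only for those without MIRI 2, GXNI 3 or both. Nor is it given for the adjusted p-values of DESeq2 or for edgeR fits with another scaling, filter or model. These include all 9 libraries in 1 fit, library totals and the replicate block. Such counts and values lack that comparison. With the replicate number as a block 1, 0 and 0 mitochondrial genes were called in MIRI against sham, GXNI against MIRI and GXNI against sham. The sample titles do not state whether equal numbers mark paired samples. Correlations of same-numbered deviations were -0.085, 0.053 and 0.108 for MIRI and sham, and -0.445, 0.128 and 0.701 for GXNI and MIRI. For GXNI and sham they were 0.108, -0.076 and 0.118. With 3 libraries a group these values cannot decide it, and the libraries were treated as unpaired. As a percentage of nuclear protein-coding counts, mitochondrial counts were 40.3 in sham, 34.2 in MIRI and 35.2 in GXNI. Leaving out 1 library moved the mean share of all counts within 27.5 to 28.7% in sham, 24.2 to 26.2% in MIRI and 24.8 to 26.6% in GXNI. Counts on 6 tRNAs were too few to test. Copied genes rest on an unstated rule for reads with several matches, which limits mt-Co2, mt-Atp6, mt-Co3, mt-Nd3 and mt-Nd4l. The cause of these changes with the settings was not tested.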
